A study of Mus musculus with 12 samples.

Results

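The makeup of short RNA was compared between 1 library of wild-type mouse embryonic stem (ES) cells and 1 library of Drosha-deficient ES cells. ES cells are grown from the inner cell mass of the blastocyst and can give rise to every tissue, and Drosha is the nuclear enzyme that starts the making of most microRNAs. The comparison took every row of the short RNA table that the authors' software had tested (status OK) and that reached 1 FPKM in at least 1 of the libraries, which held for 2597 of 36883 rows. FPKM is the number of reads scaled to the length of the gene and to the size of the library, and a row is 1 gene or several genes that the table joins. The minimum of 1 FPKM removed no row: among tested rows the lowest larger value was 3.39 FPKM, and among the 34286 untested rows the highest value was also 3.39 FPKM. The call for a row is higher, or lower, where the Drosha-deficient value differs from wild type by 2-fold or more on the log2(FPKM + 1) scale, a scale that understates the differences of low rows.

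Wild-type and Drosha-deficient cells were grown alike, in serum medium with leukemia inhibitory factor, which keeps ES cells undifferentiated. The series, whose title concerns Drosha and CG methylation, holds 12 samples, and its labels for genomic DNA derive the Drosha-deficient cells from AB1 cells of the strain 129Sv/Ev, whereas the labels for RNA name no line. The sources used here do not say how Drosha was disrupted or whether the cells are 1 clone. Short RNA was separated from Trizol-extracted RNA on a column kit and made into libraries with a small RNA kit. With 1 library per genotype there is no replicate check, no test and no p-value for any difference below.

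MicroRNAs are short RNAs that guide Argonaute proteins to messenger RNAs, mainly through pairing of the seed at their 5′ end. Drosha with its partner Dgcr8 cuts the hairpin from the primary transcript in the nucleus, and Dicer then cuts the loop off in the cytoplasm. A few microRNAs enter this path without Drosha, because their hairpin is a capped transcript of its own, an intron or a piece of another small RNA. In mouse ES cells the miR-290 cluster is the best known source of microRNAs. The same size fraction also holds small nucleolar RNAs, which guide changes to ribosomal RNA and mostly lie in introns of host genes, and structural RNAs such as 7SK, 7SL, RNase P RNA and the Y RNAs.

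The mature sequences of the microRNAs that the results turn on are shown first, since the seed decides which of them can act alike. They are from RefSeq (GRCm38.p6), which held a mature sequence for 148 of the 158 microRNA genes measured and for 20 of the 22 named by the rule. Mir5099 and Mir320 are named without one. The capitals mark bases 2 to 8, the seed. A row gives 1 value for a hairpin, so its arms cannot be told apart. In the miR-290 cluster the seed AAGUGCU was found on Mir291a, Mir294 and Mir295, and CUCAAAC on Mir290a, Mir292 and Mir293, so different hairpins carry them. The seed of miR-293-3p is its own. The sequences did not hold both arms of every hairpin: for Mir292 they held the 5′ arm alone.
miR-291a-3p: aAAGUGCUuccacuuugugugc
miR-295-3p: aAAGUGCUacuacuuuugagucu
miR-292a-5p: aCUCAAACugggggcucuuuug
miR-293-5p: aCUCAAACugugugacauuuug
miR-293-3p: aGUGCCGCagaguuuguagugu
The following are other microRNAs among the highest by FPKM in either library, and miR-503, which was not called lower.
miR-183-5p: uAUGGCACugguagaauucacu
miR-182-5p: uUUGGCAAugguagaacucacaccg
miR-148a-3p: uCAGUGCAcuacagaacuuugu
miR-7a-5p: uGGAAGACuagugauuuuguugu
miR-379-5p: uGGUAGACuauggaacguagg
miR-127-3p: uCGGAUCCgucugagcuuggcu
miR-30a-5p: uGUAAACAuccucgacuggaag
miR-503-5p: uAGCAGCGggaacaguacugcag

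Drosha itself checked the labels. It had 42.1 FPKM in wild-type mRNA and 6.22 FPKM in Drosha-deficient mRNA, 6.77-fold lower, in the direction of the genotype label. Its short RNA row had 2.26 and 0.973 FPKM and was not tested by the authors. As a check of cell type, the 7 measured genes of the miR-290 cluster held 57.8% of the microRNA reads of the wild-type library. The 6 measured genes of a list of 21 fibroblast and mesenchyme microRNAs held 0.698% there. The 4 measured genes of a list of 25 microRNAs of other differentiated cells held 0.0399%. Hairpins that lie in rows of other genes are not counted here, and the check covers the wild-type library alone.

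The short rows carry a second measure, the reads themselves. The FPKM values of rows up to 400 bases were whole multiples of a step that depends on the row's length and on the library, and the step is what 1 read is worth. Dividing by it gave a number within 0.1 of a whole read for 231 of 232 wild-type values and for 240 of 241 Drosha-deficient values below 100 reads. Among values from which the step had not been read, 76 of 76 and 87 of 87 were whole. The step differed between the libraries. On a row of 80 bases, a usual length of a microRNA hairpin, 1 read was worth 6.54 FPKM in wild type and 17.5 FPKM in Drosha-deficient cells. On a row of 65 bases the values were 8.87 and 34.3 FPKM, whereas on a row of 300 bases they were 1.33 and 1.37 FPKM. The deposited FPKM therefore places short rows higher in the Drosha-deficient library than the same number of reads places them in wild type. The deduction from the row length was 24.7 bases in wild type and 71.0 bases in Drosha-deficient cells, estimated over rows of 300 to 400 bases, and the scaled library sizes were 2730000 and 3180000 reads.

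**Figure D1:**
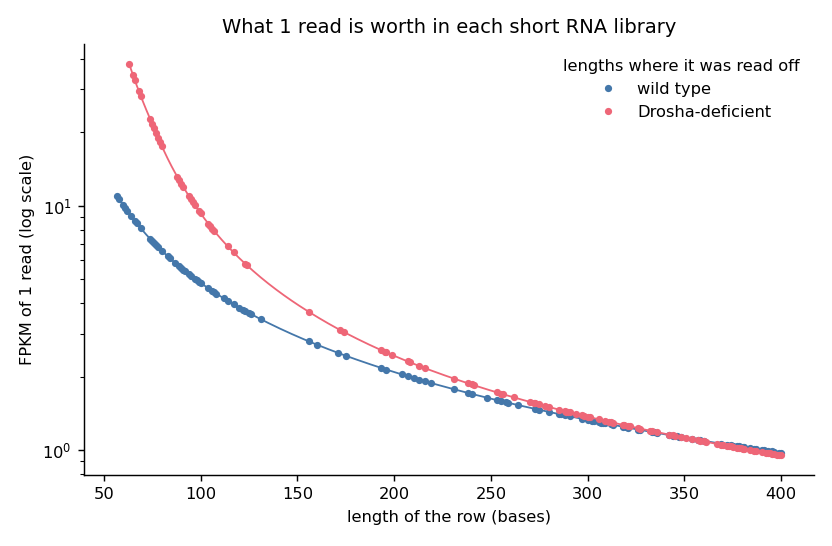
FPKM of 1 read (log axis) against row length in bases, for the wild-type and the Drosha-deficient short RNA library; points are lengths at which the step was read off, lines join them. The libraries meet near 300 bases (1.33 and 1.37 FPKM) and part below, to 6.54 and 17.5 FPKM at 80 bases.

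Reads are given below beside FPKM wherever they could be recovered, which was the case for 273 of the 2597 rows, and read ratios are per scaled library size. Of these 273 rows, 19.8% were higher and 61.5% lower by FPKM, and 15.0% higher and 63.0% lower with both libraries at the effective length of wild type. Their intervals are exact 95% binomial intervals and cover counting error only. The reads carry no molecular identifiers and are not independent molecules. Where a row had 0 reads, a floor of 3 reads gives the bound. Folds given as at least a value rest on this floor, which takes the wild-type reads as given and is not an exact interval. For Mir92-2 the floor gives 1370-fold, whereas the exact 95% interval starts at 1113-fold.

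MicroRNA genes held most of the summed FPKM of the wild-type library and a smaller share of the Drosha-deficient one. FPKM divides by length, so these are not shares of reads, and short rows weigh more in them. The 158 microRNA genes measured held 82.9% of the summed FPKM of the compared rows in wild type and 33.5% in Drosha-deficient cells. Without Mir5099 and Mir320 the shares were 79.1% and 5.21%. A second sum converted only the 273 rows with recovered reads to the same effective length and kept all others as deposited. In it the microRNA share in Drosha-deficient cells was 13.9%, and 2.55% without those 2 genes. Rows that hold a small nucleolar RNA gene went from 9.01% to 43.5%, and structural small RNAs from 3.89% to 15.8%. In the second sum they had 61.0% and 15.2%. No row holding a small nucleolar RNA gene was converted, so the 61.0% comes from the smaller total alone. Other rows that hold a microRNA gene went from 2.73% to 0.476%. A row holds a small RNA gene here where RefSeq places that gene within the row's interval, with strand and exons not compared. In bulk RNA, fewer cells with a transcript and less of it per cell cannot be told apart.

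**Figure D2:**
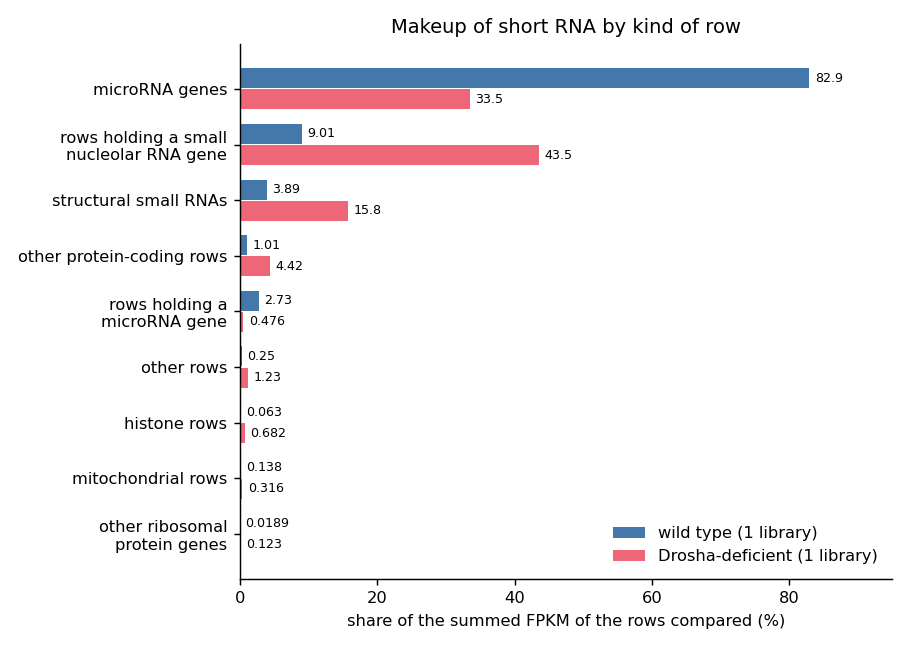
Share of the summed FPKM of the 2597 compared rows, in percent, by kind of row in 1 wild-type and 1 Drosha-deficient library; numbers beside the bars are the shares. MicroRNA genes go from 82.9% to 33.5% while rows that hold a small nucleolar RNA gene go from 9.01% to 43.5%.

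The other rows were level in sum. The summed FPKM of the 2224 rows with no microRNA gene was 582996 in wild type and 571387 in Drosha-deficient cells, whereas that of all rows was 4051620 and 864945. The median log2 difference over all rows was -0.03. Of all rows 384 (14.8%) were called higher and 477 (18.4%) lower. Setting the sums of both libraries equal moves the median of all rows to 2.02, so each direction below is relative to the authors' scaling. Of the 20 rows with the highest level, 14 were microRNA genes in wild type and 5 in Drosha-deficient cells. Rows holding a small nucleolar RNA gene made up 4 of these 20 in wild type and 8 in Drosha-deficient cells, and structural small RNAs 1 and 6.

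Of the 158 microRNA genes, 147 were lower (93.0%, against 18.4% of all rows), 6 higher and 5 neither. Their median log2 difference was -5.62. All 195 other microRNA genes of the table were listed at 0 in both libraries. Reads were recovered for all but Mir127 and Mir136. They came to 515822 in wild type and 14312 in Drosha-deficient cells, 42.0-fold lower. Mir5099 took 64.2% and Mir320 15.9% of the Drosha-deficient reads, together 80.1%, against 4.09% in wild type. Leaving them out gave 494746 and 2847 reads, 203-fold lower, which is 0.493% of the wild-type level. At the same effective length all but 7 of those with reads were lower: 4 were higher and 3 neither. The median there was -6.29.

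The loss was deep and uneven. Of the genes with recovered reads, 96 had 0 reads in Drosha-deficient cells, 29 had 1 to 3, and 31 had more. At least 100 were left for 7 genes. Among the 31 genes with at least 1000 reads in wild type, the median share left was 0.112%. Of these, 23 had under 1% left, 7 had 1 to 10%, and Mir5099 alone had more, at 38.0%. The plot of reads in both libraries shows the band in which most genes lie and the few outside it. Depth limited what could be seen of the low ones. Of 50 genes with 1 to 9 wild-type reads 43 had 0 reads in Drosha-deficient cells, and of 48 genes with at least 100 but under 1000 wild-type reads 28 did. Genes with near-identical copies share reads that the counting may have split between them, which touches Mir7-2, Mir92-2 and let-7.

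**Figure D3:**
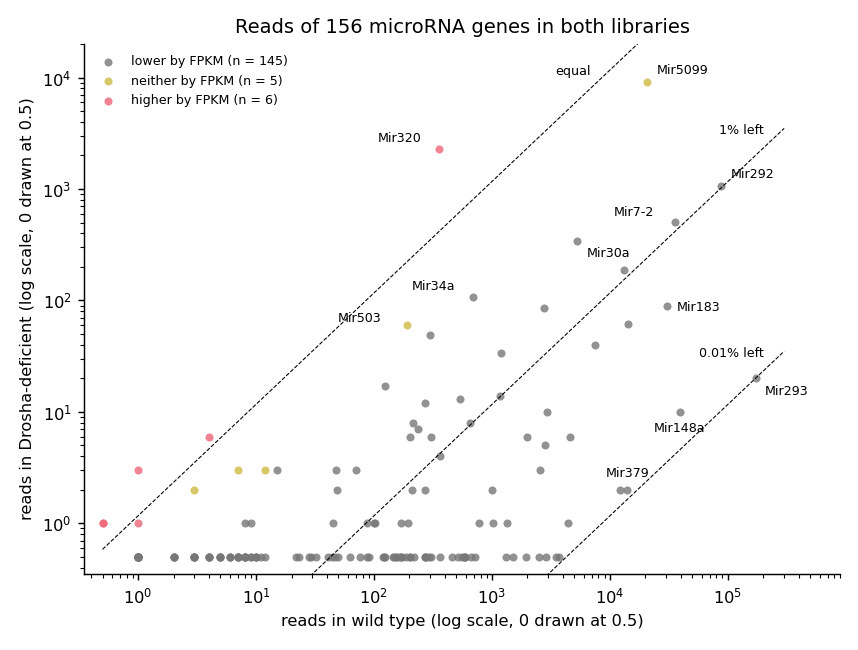
Reads of the microRNA genes with recovered reads in wild type (x axis) and Drosha-deficient cells (y axis), both on log axes with 0 drawn at 0.5; colours give the call by FPKM, and dashed lines mark equal reads per scaled library size, 1% left and 0.01% left. Mir293 lies near 0.01% left, Mir292 near 1%, and of the genes with over 6 Drosha-deficient reads only Mir320 lies above equality.

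The miR-290 cluster on chromosome 7 held more wild-type reads than any other listed group. In GRCm38 coordinates, which hold for all positions given here, Mir293 (3220343 to 3220422) had 1136290 and 350.3 FPKM, or 173624 and 20 reads, 10128-fold lower (95% interval 6558 to 16581). Mir292 (3219189 to 3219270) had 556982 and 17368 FPKM, or 88095 and 1073 reads, 95.8-fold lower (90.2 to 102). These genes lie about 1 kilobase apart in 1 cluster and share the 5′ arm seed CUCAAAC shown above, yet the share left was 0.00987% for Mir293 and 1.04% for Mir292. Their counting intervals do not overlap. Mir292 alone held 7.50% of the microRNA reads of Drosha-deficient cells.

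The other members of the cluster had larger shares left than Mir293. The first gene, Mir290a, had 1191 and 34 reads, with 2.45% left. Mir291a had 13258 and 187 reads, with 1.21% left. Mir294 had 7452 and 40 reads and Mir295 had 14236 and 61 reads, with 0.460% and 0.367% left. Mir291b rested on 48 and 3 reads, 18.7-fold lower with an interval of 6.02 to 93.7. All 7 measured genes were lower on both scales, and the cluster as a whole kept 0.408% of its wild-type reads. It held 57.8% of the microRNA reads in wild type and 9.91% in Drosha-deficient cells.

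The 5 genes of the miR-302 cluster on chromosome 3 were lower too, from 4097 to 10 reads together, with 0.209% left. In the sequences used here Mir302b and Mir302d had the seed AAGUGCU. For Mir302a these sequences held only an arm with the seed CUUAAAC, so its other arm was not looked at. Mir302d had the most reads of them, 1985 and 6, 386-fold lower (177 to 1053). Mir302a had 1019 and 1, 1189-fold lower (213 to 47002). The genes found with the seed AAGUGCU in these sequences, Mir291a, Mir294, Mir295, Mir302b and Mir302d, went from 37933 to 296 reads, with 0.669% left. Those with CUCAAAC, Mir290a, Mir292 and Mir293, went from 262910 to 1127, with 0.367% left. These reads count whole hairpins, since the arms are not separated.

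Neighbouring genes of other clusters also differed in what was left. In the miR-183 cluster on chromosome 6, Mir183 had 30675 and 90 reads (0.251% left), Mir182 had 2750 and 85 (2.65% left), and Mir96 had 1332 and 1, 1554-fold lower (278 to 61425). In wild type Mir183 thus had far more reads than Mir182, and in Drosha-deficient cells about as many. On chromosome X, Mir503 (53053984 to 53054054) had 190 and 60 reads, 3.69-fold lower (2.75 to 5.02), with 27.1% left. Its neighbours Mir322 and Mir351 had 270 and 12 reads and 302 and 6 reads, with 3.81% and 1.70% left, and Mir450b had 201 and 0. In FPKM Mir503 stood at 1476 and 1543 and was called neither higher nor lower, and on its row of 71 bases 1 read is worth more FPKM in the Drosha-deficient library.

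**Figure D4:**
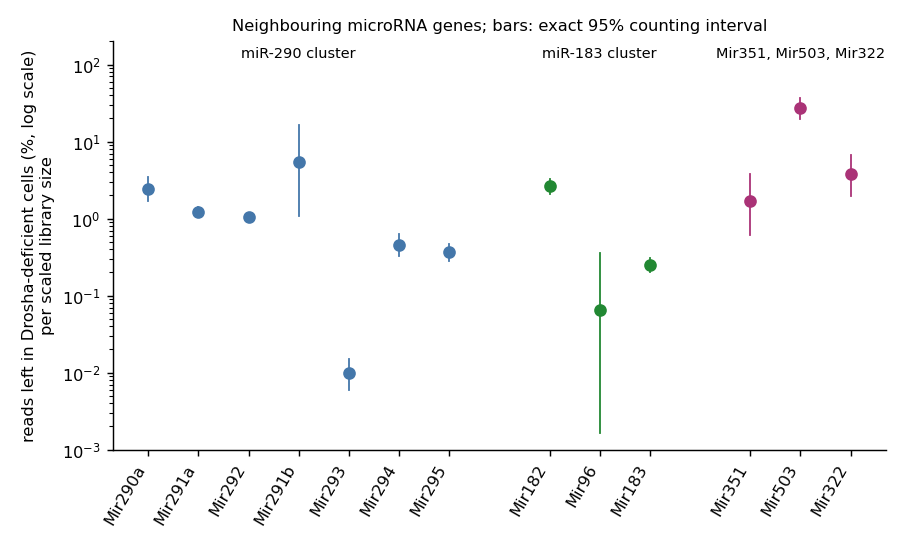
Reads left in Drosha-deficient cells, in percent of wild type per scaled library size (log axis), for the neighbouring genes of 3 groups in chromosomal order; points are single genes and bars exact 95% intervals for counting error only. Mir293 at 0.00987% and Mir503 at 27.1% stand apart from their neighbours.

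Among abundant microRNAs outside those clusters, the loss again spanned a wide range. Mir148a (chromosome 6) had 190794 and 95.5 FPKM, or 38914 and 10 reads, 4540-fold lower (2468 to 9468). Mir7-2 (chromosome 7) had 181082 and 5126 FPKM, or 35954 and 509 reads, 82.4-fold lower (75.5 to 90.1). Mir7b, which has the same seed GGAAGAC, had 296 and 49 reads, with 14.2% left against 1.21% for Mir7-2. A shared seed thus went with different shares left, as it did for Mir292 and Mir293. Mir30a (chromosome 1) had 5284 and 344 reads, 17.9-fold lower (16.1 to 20.04), with a log2 difference of -2.58 in FPKM that shrinks to -0.36 when the summed FPKM of both libraries is set equal. Mir34a, a microRNA known as a target of p53, had 697 and 107 reads, 7.60-fold lower (6.19 to 9.40).

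The imprinted Dlk1-Dio3 region of chromosome 12, a long array of microRNA genes, was nearly emptied. Of 31 measured genes 30 were lower (96.8%, against 93.0% of all microRNA genes and 18.4% of all rows). The 29 with recovered reads went from 47244 to 39 reads, with 0.0708% left. Mir379 had 13963 and 2 reads, 8145-fold lower (2254 to 67263), and Mir381 had 12228 and 2. Mir434 had 3733 and 0, at least 1452-fold lower. Mir127, for which no reads were recovered, had 74500 and 796 FPKM. Mir495 kept more than most, with 540 and 13 reads (2.06% left). The 1 member called higher, Mir3070b, rested on 1 read in each library, a ratio of 0.857 with an interval of 0.0109 to 67.3.

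Other families were lower as well. The 5 genes of the miR-17 to 92 family with rows of their own went from 11256 to 6 reads, all 6 of them in Mir20b (4600 and 6 reads). Mir92-2 had 3522 and 0 reads, at least 1370-fold lower. Mir99b on chromosome 17 had 2898 and 0, at least 1127-fold lower. The seed ACAUUCA of the miR-181 family went from 2522 to 0 reads in 4 genes. Mir23a and Mir27a went from 1882 to 0 together, at least 732-fold lower. The 4 measured let-7 genes had 165 reads in wild type and 0 in Drosha-deficient cells, at least 64.2-fold lower. Let-7 is the family that rises as ES cells differentiate. These 4 genes made up 0.0320% of the wild-type microRNA reads, and of the 15 listed let-7 genes only they had a row.

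Of the microRNA genes, 11 were not called lower by FPKM, and 8 of these had at most 6 reads in Drosha-deficient cells. Mir320 (chromosome 14, 70443510 to 70443591) had 2270 and 36857 FPKM. It is known as a hairpin that is transcribed as such and does not need Drosha. By reads it had 359 and 2277, 5.44-fold higher (4.86 to 6.09), and its log2 difference was 4.02 in FPKM and 2.44 at the same effective length. Mir5099 (chromosome 12, 36816205 to 36816278) had 207566 FPKM in Drosha-deficient cells against 151520 in wild type. That is the highest deposited FPKM of the Drosha-deficient library, but at the same effective length it is 57599. The next highest, 1110038B12Rik and 2410006H16Rik, had 150339 and 92354 FPKM as deposited. These 2 could not be converted, so their rank against the converted value is not known. In reads the direction is the other: 20717 in wild type and 9188 in Drosha-deficient cells, 2.63-fold lower (2.57 to 2.696). Its log2 difference was 0.45 in FPKM and -1.40 at the same effective length.

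The other 2 measured members of the list of microRNAs reported as not needing Drosha were lower. Mir1983 had 125 and 17 reads, 8.58-fold lower (5.15 to 15.2). Mir484 had 44 and 0 reads, at least 17.1-fold lower. The 4 members thus went in different directions. Of the remaining 5 genes called higher, none had more than 6 reads in either library. Mir5136 had 4 and 6 reads, Mir8105 had 1 and 3, Mir3070b had 1 and 1, and Mir6239 and Mir6240 each had 0 and 1. Of the other genes called neither, Mir344b had 12 and 3 reads, Mir138-1 had 7 and 3, and Mir3968 had 3 and 2. At these depths no difference was detectable for Mir138-1, Mir3968, Mir5136, Mir8105, Mir3070b, Mir6239 and Mir6240, since the interval of each ratio included equality.

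Longer rows whose interval contains a microRNA gene were called lower in 92 of 215 cases (42.8%, against 18.4% of all rows). Higher calls were made for 19, 104 rows were neither, and the median was -0.67 on the log2 scale. The value of such a row is that of the longer gene, so reads of the hairpin and of other pieces may be summed. Whether the hairpin lies within the transcript was not tested. Clcn5, a chloride channel gene with 5 annotated microRNAs, had 10334 and 12.2 FPKM, 845-fold lower. Vmp1, which contains Mir21a, had 12979 and 30.1 FPKM, 431-fold lower. Mcm7, a replication helicase gene that holds Mir106b, Mir25 and Mir93, had 6455 and 24.2 FPKM. Sfmbt2, a Polycomb gene with 72 annotated microRNA genes in its row, had 23522 and 198 FPKM.

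Transcripts of these hosts were not lower to that degree in mRNA. For the 69 rows of this kind that were lower in short RNA and measured in mRNA, the median log2 difference was -3.38 in short RNA and -0.03 in mRNA. These rows were picked by their short RNA value, so the first median is low by choice. Over all 215 rows of this kind the short RNA median was -0.67. In mRNA 8 of the 69 were lower and 11 higher, beside 7.93% lower and 8.64% higher of all 14752 rows. In mRNA Vmp1 had 415 and 505 FPKM and Clcn5 3.89 and 3.44 FPKM. Mcm7 had 65.1 and 90.6 FPKM. Sfmbt2 was lower in mRNA too, with 80.4 and 10.7 FPKM. Mir17hg, the primary transcript of 6 microRNA genes of the miR-17 to 92 cluster, had 3739 and 8.98 FPKM in short RNA and 9.09 and 69.7 FPKM in mRNA. Some of the higher rows rested on low levels in wild type. Glce, a heparan sulfate enzyme gene that holds Mir5133, had 0.357 and 20.4 FPKM in short RNA.

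Rows that hold a small nucleolar RNA gene filled much of the upper end of the Drosha-deficient library. Of 139 such rows 13 were higher (9.35%, against 14.8% of all rows) and 20 lower (14.4%, against 18.4%), and their median log2 difference was -0.14. Their summed FPKM in Drosha-deficient cells was 1.03 of that in wild type. The highest was 1110038B12Rik (chromosome 17), a noncoding host of Snord52, with 94365 and 150339 FPKM. Next came 2410006H16Rik (chromosome 11), which holds Snord49a, Snord49b and Snord65, with 58238 and 92354 FPKM. Both were called neither higher nor lower. Snhg1 on chromosome 19, which holds Snord22 and 7 further small nucleolar RNA genes, had 19326 and 49851 FPKM and was higher.

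Other hosts were level or lower. Gas5, a growth-arrest transcript whose introns hold many small nucleolar RNAs, had 48494 and 28159 FPKM. Rpl3 had 9840 and 11190 FPKM, Rpl7a 9952 and 7830, and Eif4a2 6119 and 7334. Hspa8, a constitutive chaperone gene that holds Snord14c, Snord14d and Snord14e, had 14021 and 6520 FPKM and was lower, though with equal summed FPKM its log2 difference is 1.12. Rpl17 had 4077 and 1777 FPKM and was lower on the authors' scaling, with 1.03 at equal sums. Rpl5 was the exception among the highest rows, at 68307 and 1118 FPKM, 61.1-fold lower. Its row covers 86584 bases of chromosome 5 and holds Snord21 and 2 further small nucleolar RNA genes, and which part of it gave the reads was not tested. In mRNA Rpl5 had 332 and 246 FPKM. Snrpb, a spliceosomal protein gene for which RefSeq lists no small RNA gene inside, had 20047 and 27025 FPKM. The reads of these rows could not be recovered, and the effect of the unequal value of 1 read on them was not tested. No row named as a small nucleolar RNA, a spliceosomal RNA or a 5S ribosomal RNA was among the compared rows.

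Structural small RNAs were mostly higher. Of 11 rows 8 were higher, 2 lower and 1 neither, beside 14.8% higher among all rows, and the median log2 difference was 1.41. Rn7sk, which holds the elongation factor P-TEFb inactive, had 8450 and 33603 FPKM, or 7064 and 27813 reads, 3.37-fold higher (3.29 to 3.46). The 7SL RNA is the backbone of the signal recognition particle. Gm22405, at the RefSeq locus of the 7SL gene Rn7s1, had 4788 and 17296 reads, 3.10-fold higher (2.999 to 3.198). Gm26191, at the locus of Rn7s2, had 206 and 4919 reads, 20.5-fold higher (17.8 to 23.6). These loci are near-identical copies, so the split of reads between them is uncertain.

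The RNA subunits of ribonucleoprotein enzymes were higher as well. Rpph1, the RNA of RNase P, had 583 and 1527 reads, 2.25-fold higher (2.04 to 2.47). Rmrp, the RNA of RNase MRP, had 2535 and 7750 FPKM, 3.06-fold higher. Terc, the template RNA of telomerase, had 78.2 and 952 FPKM, 12.2-fold higher. Rprl3, an RNase P RNA-like gene, had 225 and 452 reads, 1.72-fold higher (1.46 to 2.03), which is under 2-fold at the same effective length. Rprl2 had 22 and 6 reads and was lower, with a log2 difference of 0.40 when the summed FPKM is set equal. Vaultrc5, a vault RNA, had 190 and 185 reads, 1.20-fold lower with an interval of 0.973 to 1.48 that includes equality.

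The Y RNAs, which bind the Ro60 protein, went separate ways. Rny1 had 121237 and 24165 FPKM, or 28994 and 3402 reads, 9.94-fold lower (9.60 to 10.3), though with equal summed FPKM its log2 difference is -0.10. Rny3 had 17183 and 35908 FPKM and was called higher, but its reads were 3644 and 4052, 1.05-fold lower (1.003 to 1.097) per scaled library size. On its row of 102 bases the call thus came from the value of 1 read.

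**Figure D5:**
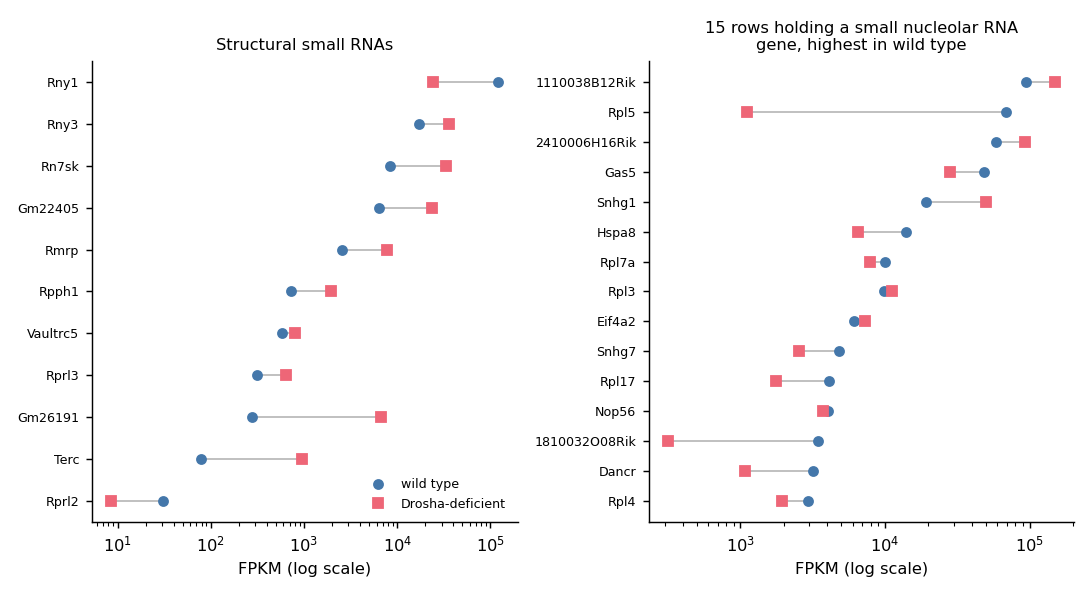
FPKM (log axis) in wild type (circles) and Drosha-deficient cells (squares), 1 library each, for 11 structural small RNAs (left) and the 15 rows holding a small nucleolar RNA gene with the highest wild-type level (right). Rn7sk, Gm22405, Gm26191 and Terc lie to the right in Drosha-deficient cells, whereas Rny1 and Rpl5 lie to the left.

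Rows of replication-dependent histones, whose messenger RNAs end in a stem-loop instead of a poly(A) tail, were mostly higher. Higher calls were made for 34 of 60 rows (56.7%, against 14.8% of all rows) and lower calls for 4 (6.67%, against 18.4%). The median was 1.10 on the log2 scale. Hist1h4d had 264 and 704 reads, 2.29-fold higher (1.98 to 2.64). Hist1h4c had 163 and 523 reads, 2.75-fold higher (2.30 to 3.30). Hist2h2aa1 had 2.18 and 93.5 FPKM. Hist1h4m and Hist1h1c were lower, at 97.1 and 34.2 FPKM and at 78.0 and 37.1 FPKM, with log2 differences of 0.71 and 1.15 at equal sums. For the 58 histone rows with an mRNA value the median log2 difference was 1.12 in short RNA and 0.35 in mRNA. In mRNA 12 of them were higher and 1 lower, beside 8.64% higher and 7.93% lower of all rows. Histone values in mRNA were mostly low: Hist1h4d had 8.72 and 6.26 FPKM and Hist1h4c 1.29 and 7.04 FPKM. The scale understates the differences of low rows, so the 2 medians are not on equal terms.

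Other protein-coding rows differed little in the median, and whether their reads are pieces of messenger RNA was not tested. The 1547 protein-coding rows that hold neither a microRNA nor a small nucleolar RNA gene had a median log2 difference of 0.02, with single rows from -4.63 to 3.59. Of the 1547 rows 175 were higher (11.3%, against 14.8% of all rows) and 157 lower (10.1%, against 18.4%). Ribosomal protein genes without a small nucleolar RNA had a median of 0.62, with 13 of 48 higher (27.1%, against 14.8% of all rows) and 0 lower. Rpl26 had 30.6 and 72.5 FPKM and Rps14 24.8 and 57.01 FPKM. Lower calls were made for 4 of 6 mitochondrial rows, against 18.4% of all rows, and higher calls for 0, and their median was -1.06. Among them mt-Cytb, the cytochrome b gene, had 439 and 213 FPKM, and mt-Tq, a glutamine transfer RNA gene, 754 and 283 FPKM. With equal summed FPKM both would be above 0, at 1.18 and 0.81.

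Rows with the name of a predicted gene, coding or noncoding, were counted by name alone, so that Gm22405, Gm26191 and others of the groups above are among them. Higher calls were made for 85 of these 249 measured rows and lower calls for 40, a share of 34.1% against 14.8% of all rows and of 16.1% against 18.4%. Their median was 0.53. Gm26035 had 4 and 197 reads, 42.2-fold higher (16.2 to 156). Gm24105 had 33 and 1001 reads, 26.0-fold higher (18.4 to 38.0). In the other direction Gm24372 had 225 reads in wild type and 0 in Drosha-deficient cells, and Gm26168 had 355 and 67 reads, 6.18-fold lower (4.75 to 8.15), with a log2 difference of 0.59 in FPKM at equal sums. The sources used here do not say what these loci encode.

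The authors' deposited table marks 85 rows as significant, 79 lower and 6 higher, and 51 of them are microRNA genes, all lower. Mir293, the row with the largest wild-type value, is not among them, with a q-value of 0.651 in the authors' deposited table. Those marks rest on 1 library per genotype and compare the libraries, not the genotypes.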

How the data were processed

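Short RNA of 1 wild-type and 1 Drosha-deficient ES cell culture was sequenced. The submitters' processing notes name Cuffdiff, Cufflinks 2.1.1, TopHat2 2.0.10 and bcl2fastq 1.8.4, and the build GRCm38 (mm10). Annotation, use of strand and library scaling were not given in the sources used here. FPKM values were deposited by the authors per gene and library, already scaled by their software. The deposited p-value and q-value columns come from the authors' Cuffdiff comparison of 1 library a side and are quoted as the authors' own.

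From these were computed log2 differences with a pseudocount of 1 FPKM and a 2-fold call, with no test. The value of 1 read was taken from the lowest values of rows of each length, followed from 400 bases downward, with Python 3.11.15, pandas 2.3.3, numpy 2.4.6, scipy 1.17.1 and matplotlib 3.10.9, and the method was tested on simulated data. It lost the step in some simulated libraries, and a check on values that the step was not read from found each of them; both real libraries passed this check. Reads behind longer rows are unknown, except for microRNA genes, where the RefSeq hairpin length was taken as the row length. Exact intervals of 95% are Clopper-Pearson intervals. Gene classes, small RNA genes inside a row and sequences are from RefSeq: 2224 of 2477 rows with a single name matched, 120 rows had several names. The 2 per-sample columns of the long RNA table were not used, and the mRNA table served for Drosha, host genes and histones.

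Named genes were the microRNA genes with the 10 highest values in each library, those not called lower, all structural small RNAs, protein-coding and other rows of at least 10 FPKM with the largest differences or levels, up to 2 genes in each direction from each list, and Drosha. Further genes are members of the listed families and clusters, and were chosen after their values were seen. The members and lists were chosen with earlier results of these data known. After the files were read, names ending in hg were left out of the microRNA class. Other pseudocounts, filters, scalings and call sizes were tried.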

Additional observations from a re-analysis of the deposited data

How the results depend on the processing

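The directions of the main groups depended little on the settings tried, apart from the scaling of the libraries. With a pseudocount of 0.1 FPKM the microRNA median was -8.18, and with 5 FPKM it was -4.68, with 131 rows higher and 279 lower. A 4-fold call left 93 higher and 263 lower. With every row except the software's failures included there were 822 higher and 883 lower. Equal summed FPKM gave 2083 higher and 243 lower, 12 microRNA genes higher, a median of 2.01 for all 1796 protein-coding rows (-0.03 as deposited) and of 3.29 for the 9 rows of the structural list without the 7SL loci (1.06 as deposited). Under it 9 named rows changed sign: Hist1h4m (0.71), Hist1h1c (1.15), Rpl17 (1.03), Rprl2 (0.40), Gm26168 (0.59), Hspa8 (1.12), Mir138-1 (1.94), mt-Cytb (1.18) and mt-Tq (0.81). This scaling multiplies every Drosha-deficient FPKM by 4.68. Rows with no Drosha-deficient FPKM are not moved, and because of the pseudocount low rows move less than high ones.

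Other alternatives were added after the data were seen. With rows with recovered reads at the same effective length the microRNA median was -6.37. Of the named rows past 2-fold on either scale, 5 changed sign: Mir5099 (-1.40), Mir3070b (-0.19), Rny3 (-0.069), Mir344b (-2.18) and Mir503 (-1.88). Vaultrc5 (-0.26) and Mir3968 (-0.74) changed sign too, but stayed within 2-fold on both scales. Among microRNA genes with at least 10 reads 2 were higher, and the median was -7.75. MicroRNA genes called lower numbered 137 to 151 over the settings that kept all 158. As there is no replicate spread, a shift of a median by 1.5-fold or more stood in for it. No paired analysis was possible because each genotype has 1 library, and no library could be left out. Reads of rows over 400 bases are unknown, except for microRNA genes taken at their hairpin length. Depth could therefore be judged for these and for short rows alone.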

Other observations

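Short RNA rows of some longer genes differed along with their mRNA. Zscan4f, a gene of a family known from the early cleavage embryo, had 0.609 and 10.1 FPKM in short RNA and 3.61 and 27.8 FPKM in mRNA (wild type, then Drosha-deficient). The predicted chromosome 12 genes Gm5662 and Gm2016 had 0.807 and 20.8 FPKM and 0.842 and 11.7 FPKM in short RNA. In mRNA they had 2.69 and 33.8 FPKM and 9.09 and 38.2 FPKM. Celf2, an RNA-binding protein gene, had 85.8 and 679 FPKM in short RNA and 6.30 and 70.1 FPKM in mRNA. Prdm10 was higher in short RNA, at 1.11 and 12.3 FPKM, and not in mRNA, at 10.4 and 8.69 FPKM. These genes have close relatives or long introns, and reads shared with other loci were not tested.

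Tmem38b and Ralgapb, chosen after their values were seen, were lower in short RNA although RefSeq lists no microRNA gene inside their rows. Tmem38b had 5970 and 240 FPKM. Ralgapb had 5116 and 245 FPKM.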
